A study of Mus musculus with 40 samples.

Results

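The gene frlB was followed in the bacterial RNA of mouse cecal contents, across 4 amounts of broccoli in a Western-type diet. The members were the rows named frlB, frlA, frlC, frlD or frlR in the deposited count tables of 5 bacteria (F. rodentium, Acetatifactor, X. muris, L.bacterium335 and D. muris), after removal of any trailing copy number. This left 1 gene, frlB of F. rodentium (identifier ENSB:lWCUGRl8ZXYTO9e), out of 18455 features in all 6 tables and 2270 of F. rodentium. There were 0 rows named frlA, frlC, frlD or frlR in the 5 tables. Only 1075 of the 2270 F. rodentium rows carried a symbol, 1075 of 2781 for D. muris and 1487 of 4661 for L.bacterium335. A symbol here is any row name that does not begin with "gene". By this rule all 4440 Acetatifactor and all 2590 X. muris rows carried one, but whether these names are gene symbols was not checked. A search by name cannot find such genes among rows without a symbol or under another name. The gene was taken up because its counts at 2.5% broccoli stood out against 0%, so its levels against the 0% diet are given as a description with no test.

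Cecal contents came from C57BL/6 mice that began the Total Western Diet at 3 weeks of age and ate it for 6 weeks. For 3 further weeks they ate this diet plain (0%) or with broccoli powder at 0.5%, 1% or 2.5%, so that all groups, the 0% group too, share the Western diet. Each diet had 10 libraries, 40 in all. The labels do not say whether mice shared cages, and p-values measure the spread between these libraries.

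FrlB is known as a deglycase. Its substrate is fructoselysine 6-phosphate, which derives from a sugar-lysine adduct that forms when food is heated, and its products are glucose 6-phosphate and lysine. In Escherichia coli it works with the transporter FrlA, the epimerase FrlC, the kinase FrlD and the regulator FrlR. The related glucoselysine is taken up in Salmonella by a phosphotransferase system of the mannose family, which adds the phosphate during uptake, and is cleaved by deglycases of the same sugar isomerase family as FrlB.

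Counted without any scaling, frlB was a low-count gene at every diet, and the diets overlapped widely. At 0% its count per library was 7 at the lowest, 30.5 at the median and 60 at the highest. At 0.5% the lowest, median and highest counts were 14, 69 and 145. At 1% they were 9, 19 and 160. At 2.5% they were 0, 38 and 422. Thus 6 of 10 libraries at 0.5%, 2 of 10 at 1% and 4 of 10 at 2.5% held more frlB counts than any 0% library, and the other libraries lay within or below the 0% range.

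What differed more between the diets was the number of F. rodentium counts in which these frlB counts were found. The total on the genome had a median of 511338 counts at 0%, 780314.5 at 0.5%, 258912.5 at 1% and 75068.5 at 2.5%. Summed over 10 libraries, frlB had 323 of 6582564 counts at 0%, 631 of 11400661 at 0.5%, 404 of 4316172 at 1% and 913 of 1384195 at 2.5%. The diet with the fewest F. rodentium counts therefore held the most frlB counts. A single library, 2.5% replicate 8 with 422, gave 46.2% of that sum, and without it the sum was 491. In most libraries at both ends of the dose range, the F. rodentium counts were spread over many features. A median of 1577 features had at least 1 count at 2.5% and 1832.5 at 0%. The 5 most counted features took a median of 16.4% at 2.5% and 15.6% at 0%. The exceptions were 2.5% replicates 6 and 9, with counts on only 59 and 117 features. The counts on all genomes together had a median of 661901 per library at 0% and 889232.5 at 2.5%. The other genomes together held 112004 to 222457 counts per library at 0% and 236131 to 1326785 at 2.5%. The F. rodentium total is thus relative to the other genomes and not an absolute amount. In RNA from whole cecal contents, fewer F. rodentium cells, less RNA per cell and more RNA of other bacteria cannot be told apart. Which of them applied was not tested.

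**Figure D1:**
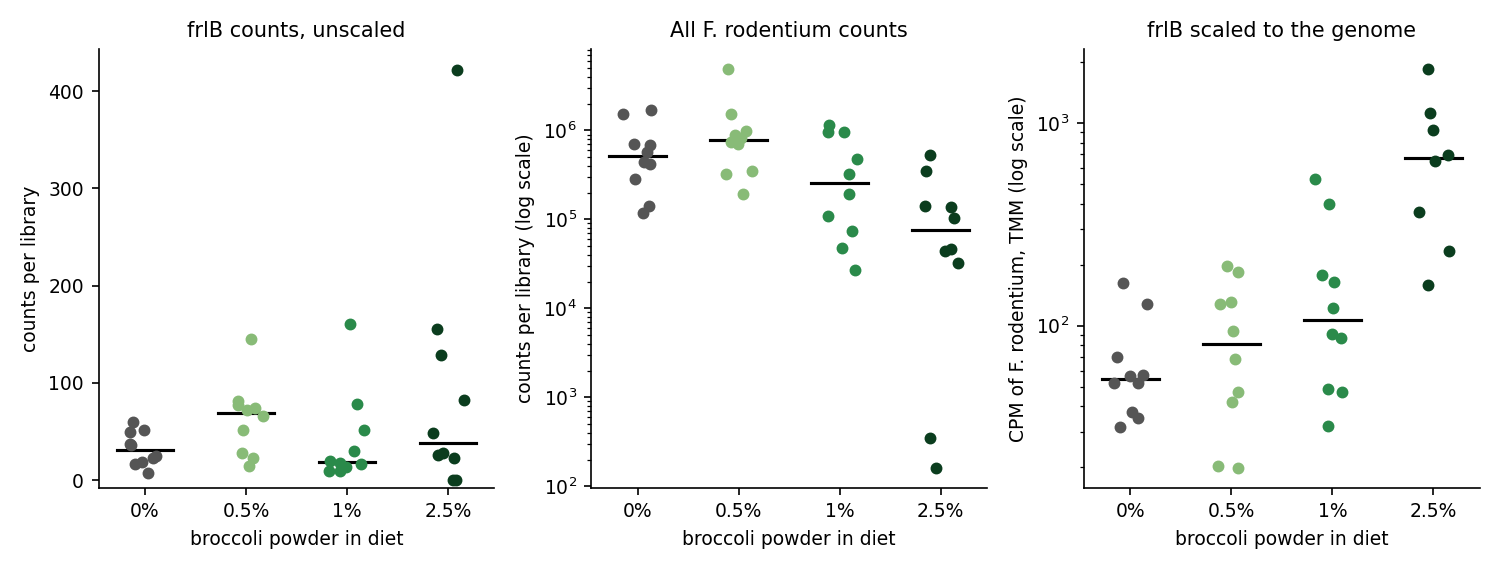
Each point is 1 library, grouped by percent of broccoli powder, and bars are medians. Left, unscaled frlB counts, with medians of 30.5, 69, 19 and 38 from 0% to 2.5%. Middle, all counts on F. rodentium on a log scale, with medians of 511338, 780314.5, 258912.5 and 75068.5 from 0% to 2.5%. Right, frlB in CPM of the genome on a log scale for the 38 libraries with at least 10000 counts, where 7 of the 8 libraries at 2.5% lie above every 0% library.

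Scaled to the genome, frlB took a larger part of the F. rodentium counts at 2.5% than at the other diets. CPM are counts of a gene scaled to a common total of counts on the tested F. rodentium features, adjusted by the library's TMM factor, for the 38 libraries with at least 10000 counts on the genome. At 0% frlB had 31.6 CPM at the lowest, 54.2 at the median and 163 at the highest. At 0.5% these were 19.8, 80.9 and 197 CPM, and at 1% they were 32.03, 107 and 527 CPM. At 2.5% they were 158, 672 and 1844 CPM.

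The means were 68.2 ± 42.9 CPM at 0% (SD, n = 10), 93.0 ± 64.6 at 0.5% (n = 10), 169 ± 164 at 1% (n = 10) and 749 ± 554 at 2.5% (n = 8). All 8 libraries at 2.5% lay above the 0% mean, and 7 of them above the highest 0% library. The exception was 2.5% replicate 3, with 158 CPM, just under 0% replicate 2 with 163 CPM. At 0.5% and 1% the range of the libraries included most of the 0% range, with 2 and 4 of 10 libraries above every 0% library.

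The log2 fold change of frlB in CPM against 0%, from edgeR's fit over the whole genome, was 0.53 ± 0.45 (SE) at 0.5%, 1.07 ± 0.48 at 1% and 3.54 ± 0.49 at 2.5%. The last corresponds to 11.6-fold, with 8.27-fold and 16.2-fold at 1 SE below and above. The slope over all diets was 1.44 ± 0.16 on the log2 scale per 1% of broccoli in the diet. At 2.5% the value of frlB ranked 9 among 1689 tested features. In that comparison edgeR called 5.39% of the tested features higher and 4.03% lower at an adjusted p under 0.05 (91 and 68). With RLE factors in place of TMM these were 111 and 45, with DESeq2 181 and 79, and scaled to the sum of 11 rows for RNA polymerase, gyrase and other housekeeping proteins 81 and 21. The value of frlB is part of why the gene was chosen, and nothing is read from its rank.

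Among all tested features of F. rodentium, the mean CPM of frlB exceeded that of 31.1% of features at 0%, 39.3% at 0.5%, 57.1% at 1% and 88.04% at 2.5%. These places compare counts that are not divided by gene length, so they show how frlB shifted against the same set of features, not how its level compares with that of another gene.

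The comparison of 1% with 0.5% sets other libraries against each other than that of 2.5% with 0%, and it was tested. The fit held all diets, so the 0% and 2.5% libraries entered its estimate of the spread. The log2 fold change in CPM was 0.54 ± 0.47 (SE), with a 95% interval of -0.40 to 1.48. It did not pass (edgeR's quasi-likelihood test, two-sided, Benjamini-Hochberg adjusted p = 0.796, unadjusted p = 0.253). A fit of these 2 diets alone gave 0.50 ± 0.49 (edgeR adjusted p = 0.768). Of all tested features 0.296% were called in that comparison. The interval spans both a lower and a more than 2-fold higher level at 1%, so at this spread the step between these doses was not detectable.

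The precision of each library was limited by its few frlB counts. As a plain CPM over all counts on the genome, without TMM factors (below, plain CPM), frlB had 165 to 1787 in the 8 libraries at 2.5% and 30.4 to 135 in the 10 libraries at 0%, which did not overlap. The exact 95% binomial (Clopper-Pearson) interval of 2.5% replicate 3, the lowest at 2.5%, was 105 to 248 plain CPM, and that of 0% replicate 2, the highest at 0%, was 77.3 to 220 plain CPM. Of the 8 intervals at 2.5%, 6 lay wholly above all 10 intervals at 0%. These intervals cover counting error only, not the spread between libraries of a diet. The gene was chosen on these diets, so the overlap of intervals is a description and no test of them.

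In 2 libraries at 2.5%, replicates 6 and 9, frlB had 0 counts. They held 161 and 352 counts on F. rodentium in all. A count of 0 there allows up to 18634 and 8523 plain CPM of frlB, taking 3 counts as the floor, which is above every measured library. The absence of frlB counts in these libraries therefore says nothing on its share, and they were left out of the CPM values.

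The frlB count of each library was also set against the number its genome total would give at the pooled 0% level of 49.1 plain CPM. At 0% itself the observed number was 0.619 to 2.76 times that number, with a median of 1.09. At 0.5% it was 0.321 to 4.51 times, with a median of 1.53, and at 1% 0.644 to 12.1 times, with a median of 2.26. At 2.5% the 8 other libraries would have held 1.61 to 25.9 frlB counts and held 23 to 422, which is 3.37 to 36.4 times that number, with a median of 14.6.

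**Figure D2:**
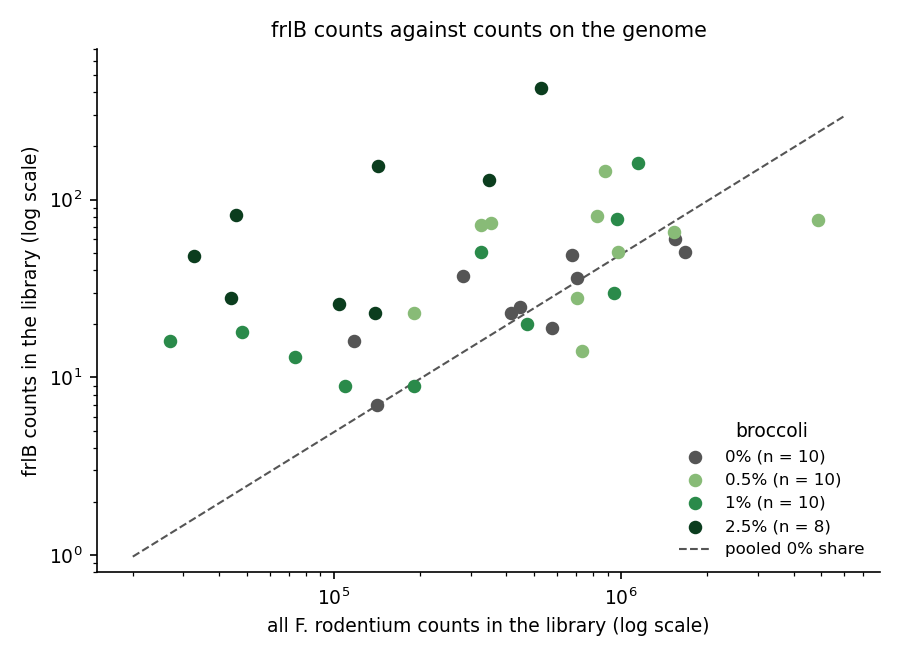
Each point is 1 of 38 libraries with at least 10000 counts on F. rodentium, coloured by diet. The horizontal axis is the library's total on the genome and the vertical axis its frlB count, both on log scales, and the dashed line is the pooled 0% level of 49.1 plain CPM. The 8 libraries at 2.5% lie above the line, by 3.37 to 36.4 times.

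The plain CPM of frlB also varied with the genome total inside the diets. Over the 10 libraries at 0%, Spearman's rho between plain CPM and the genome total was -0.65 (Pearson's r on log2 values -0.68). It was -0.59 (-0.71) at 0.5%, -0.67 (-0.71) at 1% and -0.31 (-0.39, n = 8) at 2.5%. These are descriptions, since the total is also the denominator of the CPM. Of the 8 libraries at 2.5%, 4 had totals below the lowest 0% library.

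The other 4 libraries at 2.5% had totals inside the 0% range, from 139172 to 527971 counts, and can be set beside 0% libraries of like genome total. Their frlB counts were 23, 155, 129 and 422, or 165, 1086, 372 and 799 plain CPM. All 4 lie above the highest 0% value of 135 plain CPM. The match is on the genome total only. In these 4 libraries F. rodentium made up 15.6%, 16.1%, 23.1% and 31.6% of the counts of the 6 tables. In the 0% libraries it made up 38.6% to 93.0%, so the 2 sets differ in composition. With the genome total as a covariate in the fit, the log2 fold change at 2.5% against 0% was 2.53 ± 0.39, and at 1% it was 0.61 ± 0.36. With only libraries of at least 50000 counts these values were 2.91 ± 0.46 and 0.55 ± 0.44.

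Set against the genes of RNA polymerase and gyrase, the picture at 2.5% was like that in CPM. For each 1000 counts on rpoB, which encodes a subunit of RNA polymerase, frlB had 35.9 counts at the lowest, 126 at the median and 364 at the highest at 2.5%, among the 8 libraries with at least 100 rpoB counts, against 4.54, 8.56 and 31.1 at 0%. All 8 lay above every 0% library, and 7 of the 8 did when frlB was set against the sum of 11 such housekeeping rows. At 0.5% the median was 17.6 and at 1% it was 23.4, and both ranges overlapped that of 0%. The rpoB gene itself had a log2 fold change in CPM of -0.25 ± 0.14 at 2.5% and did not pass (edgeR adjusted p = 0.243).

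Of 11 reference rows (copies of rpoA, rpoB, rpoC, gyrA, gyrB, recA, tuf and fusA) 0 rose and 1 fell at 2.5%, where 5.39% of all tested features rose and 4.03% fell, with a median log2 fold change of -0.18 against 0.01 over all features tested. The one that fell was gyrB, for a subunit of DNA gyrase, with -0.61 ± 0.19 (edgeR adjusted p = 0.0308), a call lost with RLE factors (adjusted p = 0.0657) and in other settings. At 0.5% and 1% 0 of the 11 passed with edgeR, where 8.47% and 0.474% of all tested features did, and 3 and 4 were lower at an unadjusted p under 0.05. DESeq2 called 3 lower at 0.5% (rpoA_1, rpoB and rpoC) and 0 at 1%, where it called 121 and 2 of 1689 tested features lower. At 2.5% 2 of the 11 (gyrA and gyrB) were lower at an unadjusted edgeR p under 0.05. The counts at an unadjusted p were not set against all features. Scaled to the sum of these 11 rows in place of TMM, a choice made after seeing the data, frlB had a log2 fold change of 3.51 ± 0.54 at 2.5%.

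As a part of all counts on the 6 genomes, frlB did not separate 2.5% from 0%. Scaled to the total of the 6 tables, it had 22.1, 43.4 and 88.9 CPM at 0% (lowest, median, highest), 14.9, 53.6 and 140 at 0.5%, 14.4, 27.2 and 118 at 1%, and 0, 44.5 and 253 at 2.5%. At 2.5% 2 of 10 libraries lay above the 0% range, 3 below it and 5 within it. The medians at 2.5% and 0% thus differed by less than the spread of either group. The mean log2 difference (pseudocount of 1 CPM) at 2.5% against 0% was -0.58 with all 10 libraries and 0.62 without the 2 that had fewer than 10000 counts on F. rodentium, so on this scale its sign rests on those 2 libraries. Scaled to the 5 other tables, without F. rodentium, the difference was -2.54 with all 10 libraries, and in the 8 libraries with at least 10000 counts the median was 64.8 CPM at 2.5%, against 217.8 CPM at 0%. Over all 10 libraries of each diet F. rodentium made up a median of 6.32% of the counts of the 6 tables at 2.5% and 77.5% at 0%.

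The genes whose CPM followed frlB most closely over the 38 libraries included sugar transport and sugar isomerase family genes. Among 1688 other tested features, the highest Spearman's rho among those with a symbol was that of agaC at 0.84, named for a membrane component (IIC) of an N-acetylgalactosamine phosphotransferase system of the mannose family. It was followed by manZ_1 at 0.78, named for the IID component of a mannose system, and glmS_2 at 0.74, named for glucosamine 6-phosphate synthase, an enzyme that contains sugar isomerase domains. Next came norR at 0.67, named for a transcription regulator known in Escherichia coli for its response to nitric oxide, and cutC_3 at 0.66. The median rho over all 1688 features was -0.08, and 16 features exceeded 0.5.

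After subtraction of each diet's mean, so that the diets' levels no longer contributed, rho with frlB was 0.72 for agaC, 0.78 for manZ_1, 0.59 for glmS_2, 0.48 for norR and 0.55 for cutC_3. All these values share libraries, totals and TMM factors. The 20 features most like frlB included 8 without a symbol. The numeric suffixes mark copies of a family, and the sources used here do not say how the counting divided reads between copies.

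**Figure D3:**
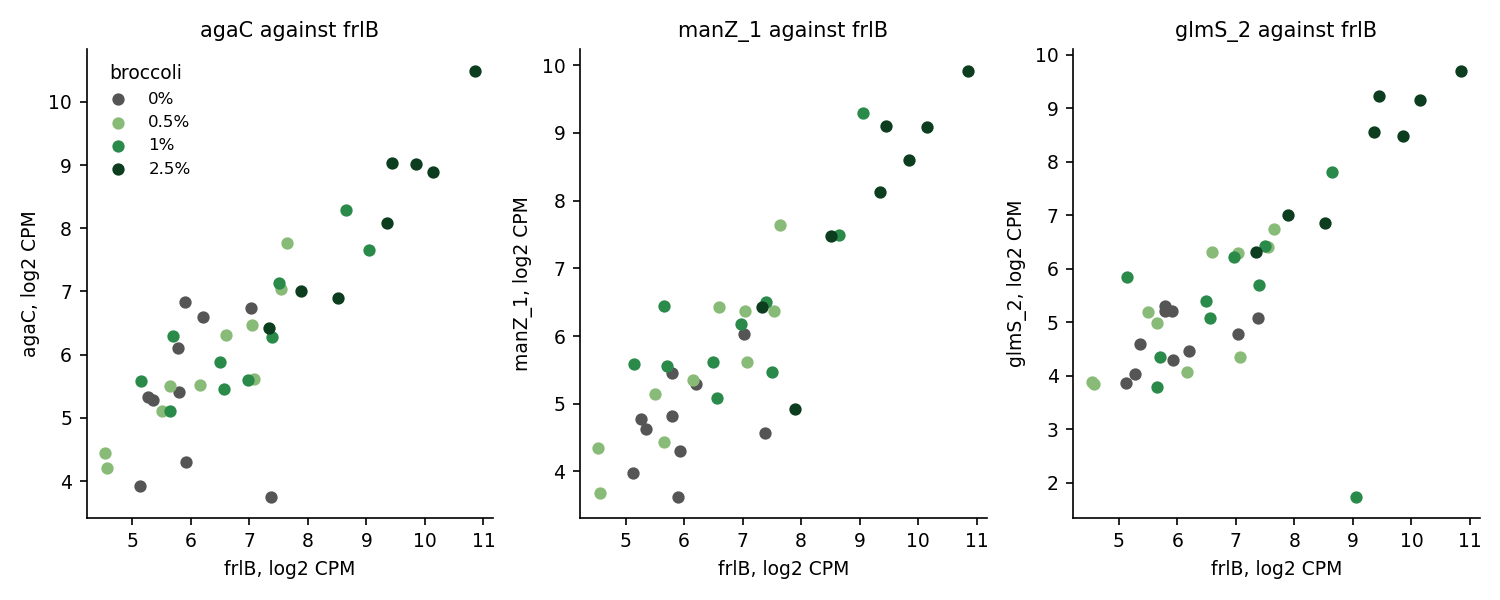
Each point is 1 of 38 libraries, coloured by diet, with log2 CPM (prior count 2) of frlB on the horizontal axis and that of agaC, manZ_1 or glmS_2 on the vertical axis. Spearman's rho was 0.84, 0.78 and 0.74. In the glmS_2 panel the lowest point is a 1% library with 0 glmS_2 counts.

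Like frlB, the first 3 of these genes had low unscaled counts. The agaC count was 28 at the median at 0%, 50.5 at 0.5%, 18.5 at 1% and 20.5 at 2.5%. For manZ_1 these medians were 15.5, 34, 18.5 and 22.5, and for glmS_2 they were 14, 35.5, 8.5 and 24. In CPM, agaC averaged 442 ± 443 at 2.5% (SD, n = 8) and 52.2 ± 38.4 at 0% (n = 10). For manZ_1 the means were 375 ± 308 CPM at 2.5% and 26.6 ± 15.7 at 0%, and for glmS_2 379 ± 271 at 2.5% and 23.8 ± 9.23 at 0%. For each of these genes 8 of 8 libraries at 2.5% lay above the 0% mean.

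The genes agaC, manZ_1, glmS_2, norR and cutC_3 were named for their likeness to frlB over libraries of all 4 diets. Their values are therefore given here with no test. Any call or unadjusted p of these genes in the lists below is a description. The log2 fold change in CPM at 2.5% was 0.86 ± 0.29 for norR and 1.84 ± 0.40 for cutC_3. At 1% it was 0.21 ± 0.28 for norR and 1.22 ± 0.39 for cutC_3. With the genome total as a covariate the values at 2.5% were 0.46 ± 0.28 for norR and 0.83 ± 0.31 for cutC_3. With that covariate agaC had 1.74 ± 0.47, manZ_1 2.54 ± 0.48 and glmS_2 3.22 ± 0.49, where the fit without it gave 2.92, 3.70 and 3.92.

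Pathway lists around the FrlB reaction were counted in the same fit, and frlB itself was left out of them. Of 4 tested mannose-family phosphotransferase genes, 2 were past the threshold and higher at 2.5% and 0 lower, where 5.39% of all tested features were higher and 4.03% lower. The median log2 fold change of the 4 was 1.31 against 0.01 over all features. The 2 that were higher were agaC, with 2.92 ± 0.52, and manZ_1, with 3.70 ± 0.56, both among the genes named for their likeness to frlB, so the count is a description. The other copies of the family, manX and manZ_2, had log2 fold changes of -0.44 ± 0.22 and -0.30 ± 0.16 and did not pass (edgeR adjusted p = 0.187 and 0.244). Of these, manX was lower at an unadjusted edgeR p under 0.05. At 0.5% and at 1% 0 of the 4 passed with edgeR, where 8.47% and 0.474% of all tested features did. Of these 4, manZ_1 had an unadjusted edgeR p under 0.05 at both doses and was the 1 gene that DESeq2 called at 1%. There DESeq2 called 20 of 1689 tested features higher. The call of manZ_1 too is a description, since manZ_1 was named for its likeness to frlB. The list was drawn up with the value of manZ_1 known from earlier results, so its count is not independent evidence.

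Before scaling, the median count of manZ_1 was 22.5 at 2.5% and 15.5 at 0%, and that of manZ_2 was 739.5 at 2.5% and 6319 at 0%. The unscaled median of manZ_2 was thus lower at 2.5% than at 0%, as that of the genome total was, while that of manZ_1 was not.

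Of 6 tested genes of the sugar isomerase family, to which FrlB belongs, 1 was past the threshold and higher at 2.5% and 0 lower, where 5.39% of all tested features were higher and 4.03% lower, with a median log2 fold change of 0.53 against 0.01 over all features. It was glmS_2, with 3.92 ± 0.49, which was also named for its likeness to frlB, so this count too is a description. The copies glmS_1 and glmS_3 had 0.42 ± 0.21 and 1.04 ± 0.50 and did not pass (edgeR adjusted p = 0.188 and 0.165). Neither did pgi, for glucose 6-phosphate isomerase (-0.05 ± 0.13), hxlB, named for a hexulose phosphate isomerase (0.65 ± 0.27), or murQ_1, named for a cell wall sugar etherase (0.28 ± 0.33). At 0.5% and 1% 0 of the 6 passed with edgeR, where 8.47% and 0.474% of all tested features did, with 2 (glmS_2 and glmS_3) and 1 (glmS_2) at an unadjusted p under 0.05, and 0 with DESeq2. At 2.5% DESeq2 called hxlB higher beside glmS_2, where it called 181 of 1689 tested features higher. At that dose 4 of the 6 (glmS_1, glmS_2, glmS_3 and hxlB) were higher at an unadjusted edgeR p under 0.05. These unadjusted counts were not set against all features. A further row, murQ_2, had 0 counts in all 40 libraries and was not tested.

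**Figure D4:**
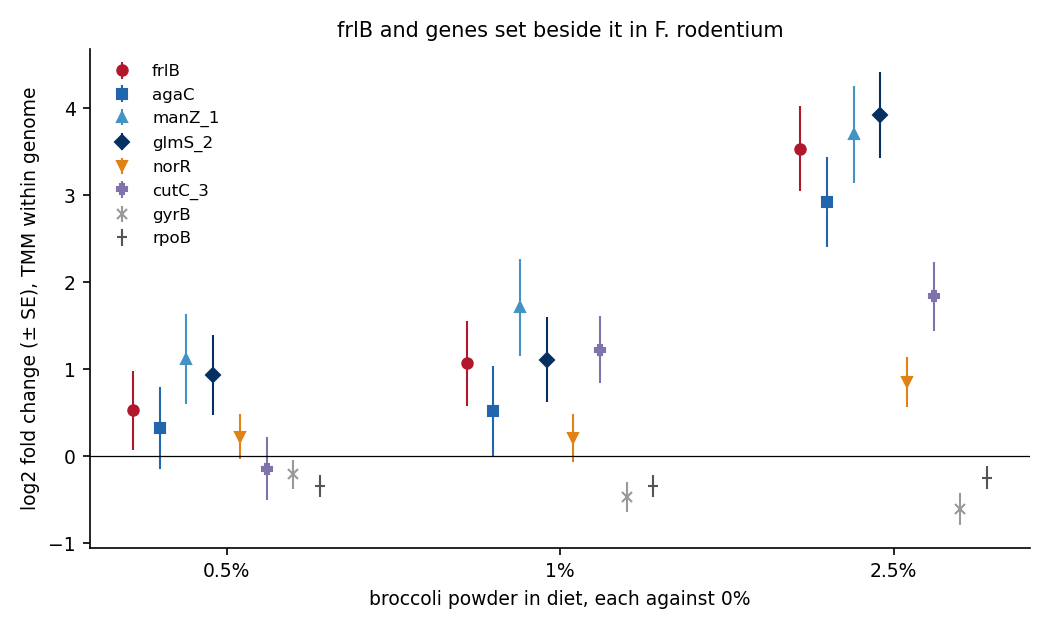
Log2 fold changes in CPM against 0%, with SE, at 0.5%, 1% and 2.5% broccoli for frlB, the 5 genes with a symbol whose pattern was most like it, and gyrB and rpoB. At 2.5% the values were 3.54 for frlB, 2.92 for agaC, 3.70 for manZ_1, 3.92 for glmS_2, 0.86 for norR, 1.84 for cutC_3, -0.61 for gyrB and -0.25 for rpoB.

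Genes that handle the products of the FrlB reaction were counted next. Of 6 tested genes of glucose 6-phosphate use, 0 rose and 1 fell at 2.5% (edgeR and DESeq2, also at an unadjusted p under 0.05), with a median log2 fold change of -0.09. Of all tested features edgeR called 5.39% higher and 4.03% lower there, and DESeq2 called 181 of 1689 higher and 79 lower. The one that fell was pfkA, for the phosphofructokinase of glycolysis, with -0.64 ± 0.17 (edgeR adjusted p = 0.0142), a call lost when scaled to the reference rows (adjusted p = 0.0912). At 0.5% and 1% 0 of the 6 passed with edgeR, where 8.47% and 0.474% of all tested features did. At 0.5% fba and pgcA, of glycolysis and glucose phosphate conversion, had 0.35 ± 0.15 and 0.44 ± 0.15 (edgeR adjusted p = 0.158 and 0.0652). DESeq2 called both higher, where it called 132 of 1689 tested features higher. Of 3 tested lysine genes 0 passed at any dose with edgeR or DESeq2, and 0 had an unadjusted p under 0.05. Beside the edgeR shares just given for each dose, a count of 0 of 3 lies near the background and nothing is read from it. The 3 genes were cadA (lysine decarboxylase), with a log2 fold change at 2.5% of 0.23 ± 0.25, dapA (lysine synthesis), with 0.10 ± 0.28, and lysA (the last step of lysine synthesis), with 0.03 ± 0.31. Of the general phosphotransferase genes, which pass phosphate to every such transporter, ptsH and ptsI did not pass at 2.5% (-0.50 ± 0.18 and 0.06 ± 0.15, edgeR adjusted p = 0.0642 and 0.867), and ptsI rose at 0.5% (0.45 ± 0.14, edgeR adjusted p = 0.0398), where 3.55% of all tested features rose. DESeq2 called ptsH and ptsI higher at 0.5%, where it called 132 of 1689 tested features higher. At 2.5% it called ptsH lower, where it called 79 lower. Over all diets edgeR gave ptsH a slope of -0.26 ± 0.08 on the log2 scale per 1% of broccoli (edgeR adjusted p = 0.0316).

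The titles number 6 libraries 76 to 81, apart from the others, and none of them is a 0% library. At 0.5%, libraries 76 to 79 had 81, 145, 23 and 77 frlB counts, or 98.2, 165, 120 and 15.8 plain CPM. The other 6 libraries at 0.5% had 14 to 74 counts and 19.0 to 221 plain CPM, so that 3 of the 4 lay above them in counts and none did in CPM. At 1% library 80 had 30 counts (31.6 plain CPM), and at 2.5% library 81 had 26 counts (249 plain CPM). Without these 6 libraries the log2 fold change of frlB was 0.52 ± 0.48 at 0.5%, 1.24 ± 0.47 at 1% and 3.67 ± 0.47 at 2.5%.

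Scaled to the genome, the log2 fold change of frlB at 2.5% against 0% was positive in each setting run. Leaving out each of the 18 libraries in turn gave log2 fold changes of 3.21, without 2.5% replicate 4, to 3.75, without 0% replicate 5. Across the other settings on this scale the log2 fold change ranged between 2.53, with the genome total as a covariate, and 3.67, without libraries 76 to 81. Scaled to the counts of all tables together, the sign of the difference depended on the libraries kept, as given above.

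**Figure D5:**
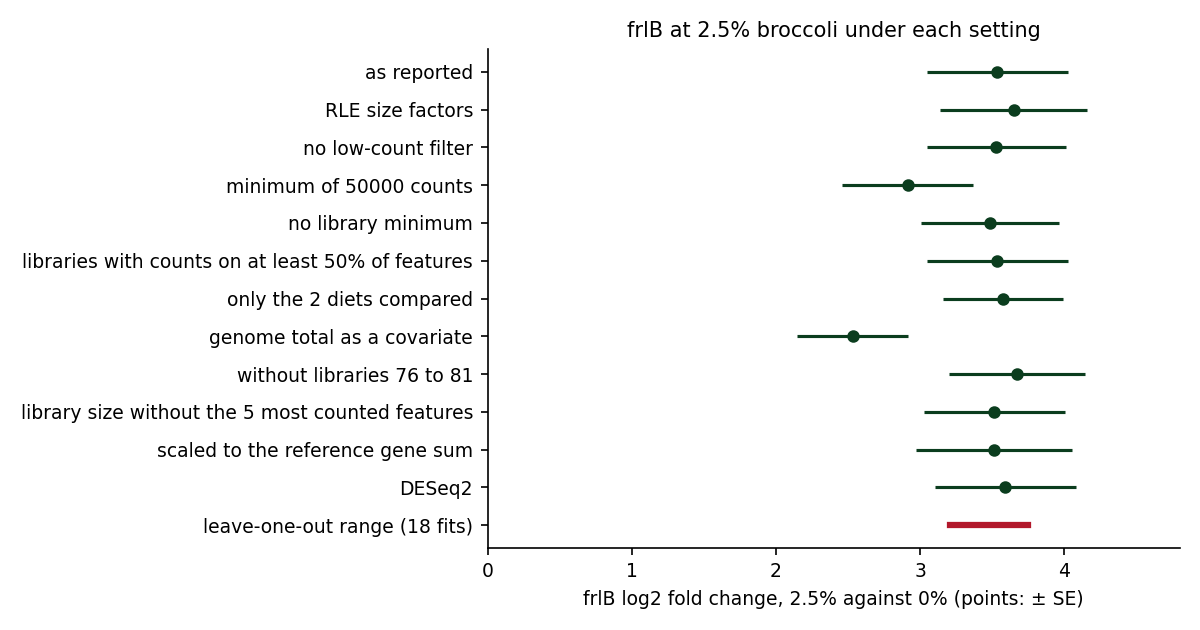
Log2 fold change of frlB, scaled to the genome, at 2.5% against 0% as reported and under each alternative, with SE (points), and the range of the 18 fits that leave out 1 library (bar). The values run between 2.53 with the genome total as a covariate and 3.75 without 0% replicate 5.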

How the data were processed

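The authors deposited 6 tables, each with whole-number counts for the features of 1 bacterial genome and 40 columns that each match 1 library title. The sources used here name no aligner, counting program or genome build, nor how shared reads were treated. Per the labels' protocols, rRNA was removed from the RNA of the contents (QIAseq FastSelect) before KAPA RNA HyperPrep libraries.

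F. rodentium was fitted alone: libraries with at least 10000 counts (38 of 40), filterByExpr, TMM factors and edgeR 4.0.16 quasi-likelihood tests with all diets in 1 fit, two-sided, Benjamini-Hochberg adjusted over the 1689 tested features at 0.05. Each SE is the absolute log2 fold change over the square root of F. Alternatives were RLE factors, filters, library minimums, covariates and DESeq2 1.42.0. The script was tested on simulated counts.

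Totals on the 6 tables ranged from 236483 to 5107249 per library, and 0 pairs of libraries were identical on F. rodentium. The gene, the lists (glycated amino acid genes, of which the F. rodentium table held frlB alone by name, mannose-family and general phosphotransferase, sugar isomerase, glucose 6-phosphate, lysine and reference genes) and the rules were chosen with earlier results of these data known. Named genes are frlB, the 5 with a symbol and the highest Spearman's rho with it, list members called at 2.5% (up to 4 per list by p), rpoB and gyrB. Other list members were named after their values were seen, to complete the counts. Planned tests of frlB in other genomes had no row to run on.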

Additional observations from a re-analysis of the deposited data

Results flagged for a closer look

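Single libraries stood far from the others of their diet in 5 of 16 checks of a diet's 10 libraries (8 for frlB scaled to the genome at 2.5%). The rule's rate of about 1 in 20 by chance holds for normally distributed values. Most of these checks were on unscaled counts or totals with long upper tails, and the measures share counts. The 5 are therefore not set against that rate. In unscaled counts, frlB had 145 in 0.5% replicate 8, 160 in 1% replicate 6 and 422 in 2.5% replicate 8, each well above the rest of its diet. Scaled to the total of the 6 tables, frlB had 88.9 CPM in 0% replicate 5. The total on F. rodentium was 4882829 counts in 0.5% replicate 10, and frlB had only 77 counts there. In plain CPM of the genome, without TMM factors, no frlB value stood apart in this way at any diet.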

How the results depend on the processing

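When scaled to the genome, the sign of the frlB log2 fold change at 0.5%, 1% and 2.5% against 0%, and of the slope, held under every alternative run. The step of 1% against 0.5%, 0.54 as reported and not passed, was -0.074 once the genome total entered as a covariate (edgeR adjusted p = 0.996) and 0.03 with libraries of at least 50000 counts. Leaving out 1 library at a time gave 0.24 to 0.72 for that step and 3.21 to 3.75 for 2.5% against 0%. The log2 difference in CPM at 1% against 0% was -0.18 scaled to all 6 tables and -1.19 scaled to the 5 other tables. At 2.5% against 0% these were -0.58 and -2.54, and with pseudocounts of 0.1 and 10 CPM in place of 1 the first was -1.23 and -0.017. No paired analysis was possible because the replicate numbers only follow the order of the samples. The number of features called at 2.5% was 159, and 78 with this covariate, 94 with only the diets compared, 102 each with at least 50000 counts, without libraries 76 to 81 and with reference gene scaling, and 260 with DESeq2. At 0.5% it was 143, and 40, 90, 247 and 253 without libraries 76 to 81, with reference gene scaling, with only the diets compared and with DESeq2. At 1% it was 8, and 2 with the covariate to 22 with DESeq2. For 1% against 0.5% it was 5, and 3 to 31, and for the slope 101, and 24 to 211. RLE factors and DESeq2 moved the median log2 fold change of all features at 2.5% to 0.12 and 0.13, where it was 0.01, and reference gene scaling that at 0.5% to 0.24, where it was 0.02, and at 1% to 0.12, where it was -0.04. Higher and lower calls at 0.5% were 60 and 83, and 78 and 72 with RLE factors, 132 and 121 with DESeq2 and 80 and 10 with reference gene scaling. At 2.5% pfkA lost its call with reference gene scaling, and gyrB with that, RLE factors, at least 50000 counts, only the diets compared and the covariate. Depth limits frlB: 35 of 40 libraries held under 100 counts.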
